A study of Mus musculus with 2 samples.

Results

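The genes described here are extracellular matrix proteases and their inhibitors: matrix metalloproteinases (Mmp), ADAM and ADAMTS proteases with the ADAMTS-like proteins, tissue inhibitors of metalloproteinases (Timp1 to Timp4), serpins of clades A to H, and Plat, Plau and Plaur. They were chosen by gene symbol, with earlier results of these data known. Of 18651 genes with reads in either library, 112 matched, 99 in the control library, 107 in the Seh1cKO library and 94 in both. By family these were 21 Mmp, 19 Adam, 19 Adamts, 5 Adamtsl, 4 Timp and 41 serpin genes, with the 3 genes of plasminogen activation.

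The data are bulk RNA sequencing of cultured mouse oligodendrocyte-lineage cells (C57BL/6), 1 library per genotype. Precursors were purified by immunopanning from the cortex of pups aged 4 to 7 days, on anti-GalC and then anti-O4 plates, and expanded in PDGF-AA, CNTF, bFGF and NT3. Triiodothyronine (T3, 60 nM) was then added, PDGF-AA, bFGF and NT3 were taken away, and immature cells were collected after day 2 of T3. By genotype label the control cells are wild type; Seh1cKO cells are mutant, from a conditional knockout of the nucleoporin gene Seh1l. For the Cre driver, the deleted exons, the number of animals and any pooling nothing is given in the sources used here.

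Matrix proteases cut collagens, proteoglycans and cell surface proteins, and most are made as inactive precursors. Metalloproteinases carry a zinc ion in the active site and are blocked by TIMPs, which bind it. Serpins inhibit serine proteases by trapping them in a covalent complex, and the plasminogen activators tPA and uPA, made from Plat and Plau, turn plasminogen into plasmin, which in turn can activate metalloproteinases. In the nervous system these enzymes are known for remodelling the proteoglycan-rich matrix, for releasing growth factors and for opening paths for glial processes.

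The libraries held 20730114 and 20599590 reads assigned to genes. Levels are given as CPM, reads per 1000000 reads of the library, and as FPKM, reads per length and library, where genes are compared with each other. Seh1l was at 32.1 CPM in control against 18.5 CPM in Seh1cKO, 1.73-fold lower (1.53 to 1.97). All intervals are exact 95% intervals that cover counting error only, and with 1 library per group no test of the genotype was possible. Rescaling the libraries by the median of ratios lowers every log2 ratio of CPM by 0.077, which the intervals do not cover. Whether an interval includes equality was read on the CPM scale and can change with the scaling. Sex-linked genes differed between the libraries too, with Xist at 0.868 CPM in control against 341 CPM in Seh1cKO and Eif2s3y at 82.2 and 0.0485 CPM, so sex and genotype cannot be told apart. Markers of oligodendrocytes, newly formed and mature, were lower in Seh1cKO in 9 of 9 measured genes, with a summed level of 4637 CPM in control and 971 CPM in Seh1cKO. Astrocyte markers were abundant in both, at 12172 and 7920 CPM summed. Fibroblast markers were higher in 12 of 12 cases (255 and 745 CPM). Mesothelial and epithelial markers were higher in 6 of 7 (11.2 and 204 CPM), and over all genes 60.9% were higher. In bulk RNA, fewer cells of a type and less RNA per cell cannot be told apart.

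Most of these genes were at similar or somewhat higher levels in Seh1cKO. Of the 112, 69 reached a mean of 1 CPM and were measured. Among them 7 were at least 2-fold higher on the log2(CPM + 1) scale, which is 10.1%, beside 2.86% of all 13758 genes measured. They were Serpinb9b, Mmp3, Plau, Adamts14, Mmp2, Plaur and Adam8. None was at least 2-fold lower on that scale, beside 1.29% of all genes. Serpinf2 came closest, at a log2 ratio of -0.98, and was past 2-fold lower under other settings given below. The median log2 ratio of the 69 was 0.32, and 0.07 over all genes. By any amount, 55 of the 69 (79.7%) were higher, beside 60.9% of all genes. When the libraries were scaled by the median of ratios, 50 of 69 were higher, beside 49.3% of all genes. The plot of levels shows that the 7 genes past 2-fold were low in control, none above 16.1 CPM, while the more abundant genes stayed within 2-fold. Of the 14 members at a mean of 1 to 5 CPM, 3 (21.4%) were past 2-fold higher, beside 7.50% of all genes at that level, and of the 55 members at 5 CPM or more, 4 (7.27%), beside 1.98%.

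**Figure D1:**
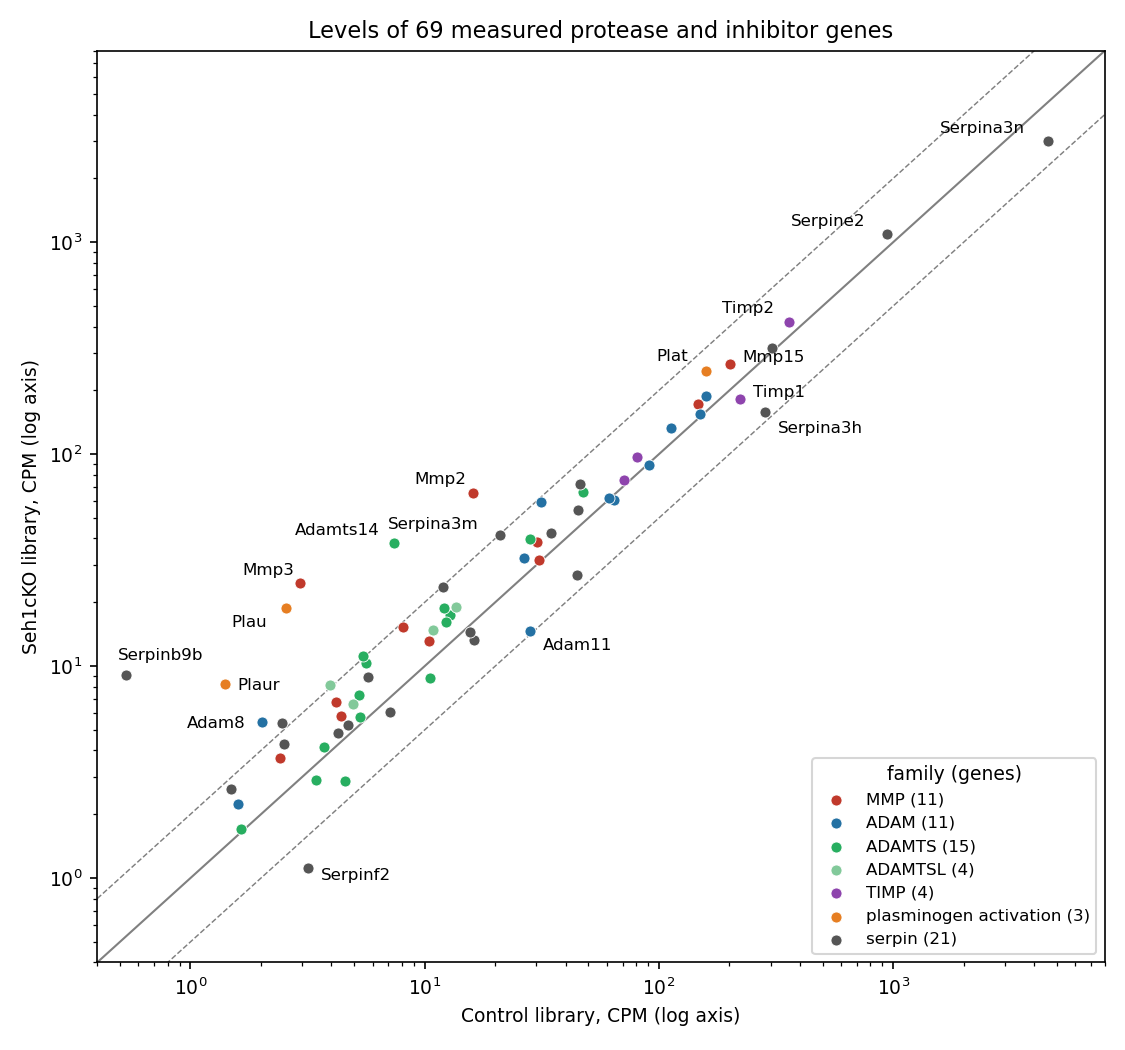
Level of each of the 69 measured genes in the control library (horizontal, CPM, log axis) and the Seh1cKO library (vertical, CPM, log axis), coloured by family, 1 library each. The solid line marks equal levels and the dashed lines a 2-fold ratio of CPM; Serpina3n, at 4589 and 2988 CPM, stands at the top right, and Mmp3, Plau, Plaur, Adamts14, Mmp2 and Serpinb9b lie above the upper dashed line.

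Secreted matrix metalloproteinases showed the largest differences of the Mmp family. Mmp3, stromelysin 1, degrades proteoglycans, laminin and fibronectin and activates other metalloproteinases (GRCm38 chromosome 9, 7445822 to 7455975). It was at 2.94 CPM in control, from 61 reads, and 24.6 CPM in Seh1cKO, from 507 reads, 8.36-fold higher (6.40 to 11.1). Mmp2, gelatinase A, cuts denatured collagen and basement membrane collagen (chromosome 8, 92827290 to 92853421). It was at 16.1 and 65.9 CPM, 4.10-fold higher (3.64 to 4.64). These 2 secreted enzymes were past 2-fold, while Mmp11, Mmp19 and Mmp28 were at ratios of 1.61, 1.26 and 1.53. The summed level of all 14 secreted Mmp genes was 36.8 CPM in control and 117 CPM in Seh1cKO. Mmp9, gelatinase B, which oligodendrocytes are known to use in extending processes, was below 1 CPM on average, with 10 and 24 reads, a ratio of 2.42 (1.11 to 5.66). Fibroblast markers, which were higher in the same library (255 and 745 CPM), moved with these genes, and their part in the result was not tested.

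Mmp3 lies in a run of 8 Mmp genes on chromosome 9 (7272514 to 7581885), of which it alone was measured. Of the other members of the run, 5 had no read in control after rounding: Mmp13 had 0 and 14 reads, at least 4.70-fold higher against a floor of 3 reads, and Mmp1a 0 and 5, Mmp1b 0 and 2, Mmp27 0 and 2. Mmp10 was listed in Seh1cKO at an expected count of 0.49. Mmp12 had 4 and 10 reads and Mmp8 1 and 7. All of these are close to the detection floor, so only Mmp13 and Mmp3 separate the libraries at this depth. Mmp3 shares 8.39% of its 50-base stretches with other genes, mainly Mmp10, which had almost no reads.

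The promoters of this run are shown because they carry a common motif. The 250 bases before the RefSeq start site were searched on both strands for TGANTCA (N any base), in the 88 promoters listed for 77 of the genes. This pattern takes in the usual sites of the AP-1 factors Fos and Jun, TGAGTCA and TGACTCA, and also the looser TGAATCA and TGATTCA. The motif was found in 16 of 88 promoters (18.2%), beside 6.75% of all 32851 promoters of the RefSeq table for GRCm38.p6. It stood in 5 of the 51 promoters of measured genes (9.80%) and in 2 of the 5 listed for genes past 2-fold, those of Mmp3 and Plaur. In the chromosome 9 run, 6 of 8 genes had it, and in a run of 6 Serpinb genes on chromosome 1 (106861175 to 107608978) all 6 had it. Every match of the chromosome 9 run was TGAGTCA or TGACTCA. Of the Serpinb run only Serpinb8 had TGAGTCA, and the others had TGAATCA or TGATTCA. The genes of a run are related copies, so their promoters are not independent of each other. Overlapping windows listed for Serpinb2 hold the same match, 94 and 181 bases before their starts, and it was counted for each. The 120 bases before the start of 6 genes follow, 5′ to 3′ on the strand of the gene (plus in each). The TGANTCA match is in capitals, and in Serpinb2 it is the looser TGAATCA. GENCODE M21 annotates no exon or gene in these stretches, and the Plaur and Serpinb2 stretches lie within the RefSeq spans of those genes.
Mmp3 (chr9:7445702-7445821): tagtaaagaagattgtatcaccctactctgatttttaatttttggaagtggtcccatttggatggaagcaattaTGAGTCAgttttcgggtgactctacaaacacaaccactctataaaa
Mmp13 (chr9:7272394-7272513): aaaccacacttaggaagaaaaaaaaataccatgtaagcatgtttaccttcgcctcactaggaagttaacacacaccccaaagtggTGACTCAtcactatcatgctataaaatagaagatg
Mmp10 (chr9:7502222-7502341): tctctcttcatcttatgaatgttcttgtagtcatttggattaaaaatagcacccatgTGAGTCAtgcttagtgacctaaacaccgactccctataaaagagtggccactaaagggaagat
Mmp1a (chr9:7464021-7464140): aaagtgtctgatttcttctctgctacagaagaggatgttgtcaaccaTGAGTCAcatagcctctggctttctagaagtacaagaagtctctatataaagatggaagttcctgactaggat
Plaur (chr7:24462363-24462482): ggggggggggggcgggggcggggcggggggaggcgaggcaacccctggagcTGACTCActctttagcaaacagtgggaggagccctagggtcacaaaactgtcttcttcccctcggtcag
Serpinb2 (chr1:107511303-107511422): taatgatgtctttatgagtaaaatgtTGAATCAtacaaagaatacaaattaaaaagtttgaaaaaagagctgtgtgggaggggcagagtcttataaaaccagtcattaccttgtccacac
The match began 46 bases before the start in Mmp3, 35 in Mmp13, 63 in Mmp10, 73 in Mmp1a, 69 in Plaur and 94 in Serpinb2. The 4 Mmp genes and Serpinb2 also hold TATAAA, which was found in 12.4% of all promoters. Of these 6 genes only Mmp3 and Plaur were measured. A match describes the letters of the window and says nothing of binding in these cells.

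Membrane-anchored metalloproteinases were the abundant part of the family and differed little. Mmp15, membrane-type 2 MMP, was the most abundant, at 201 CPM in control against 266 CPM in Seh1cKO, a ratio of 1.32 (1.27 to 1.38). Mmp14, membrane-type 1 MMP, which cuts collagen at the cell surface and activates the Mmp2 precursor, was at 146 and 172 CPM, giving a ratio of 1.18 (1.12 to 1.24). Mmp16 was at 8.06 and 15.3 CPM, giving a ratio of 1.90 (1.57 to 2.31), and Mmp24, Mmp23 and Mmp17 had ratios of 1.28, 1.33 and 1.02. All 11 measured Mmp genes were therefore at a higher CPM in Seh1cKO, beside 60.9% of all genes, with a median log2 ratio of 0.40. However, Mmp17 turned lower once scaled to the median of ratios or to the upper quartile. On the per-length scale Mmp14 was 7.36 times the level of Mmp2 in control and 2.11 times in Seh1cKO, at 38.1 and 5.18 FPKM against 44.8 and 21.3 FPKM. The distance between activator and target was thus smaller in the Seh1cKO library.

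**Figure D2:**
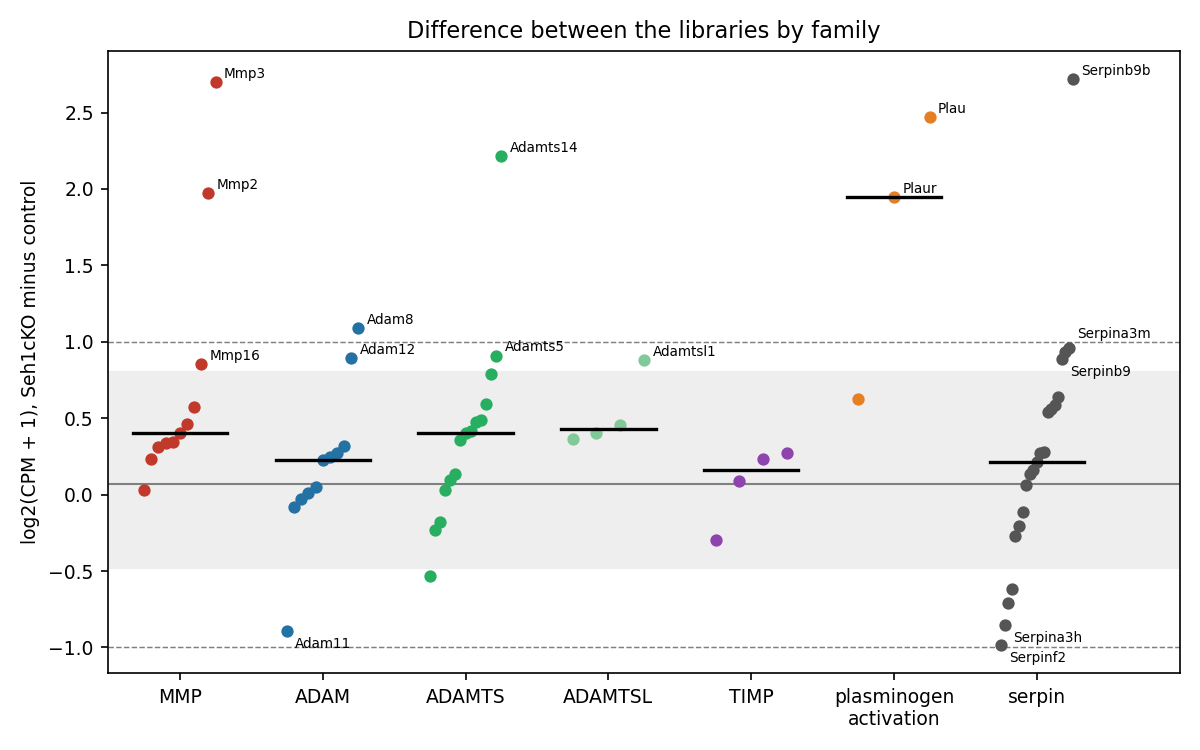
Difference in log2(CPM + 1), Seh1cKO minus control (vertical), for each measured gene by family; points are genes in order of their difference, black bars family medians. The grey band spans the 5th to 95th percentile of all 13758 genes measured and the grey line their median of 0.07; dashed lines mark 2-fold, and Mmp3, Mmp2, Adamts14, Plau, Plaur, Adam8 and Serpinb9b lie above the upper one.

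ADAM genes, which encode membrane proteases that shed growth factors, Notch ligands and adhesion molecules, were near equality at their most abundant members. Adam15 was at 159 CPM in control against 188 CPM in Seh1cKO, Adam9 at 150 and 155 CPM, and Adam10, the main sheddase of Notch and of prion protein, at 113 and 132 CPM. Their ratios were 1.19 (1.14 to 1.25), 1.04 (0.987 to 1.09) and 1.17 (1.11 to 1.24). Adam17, the sheddase of tumour necrosis factor and of several EGF receptor ligands, was at 64.4 and 60.9 CPM, with a ratio of 0.945 and an interval (0.874 to 1.02) that includes equality. The members that differed were less abundant. Adam8, a sheddase of leukocytes and tumour cells, was at 2.03 and 5.44 CPM, 2.68-fold higher (1.87 to 3.92), the 1 Adam gene past 2-fold. Adam12, a metalloproteinase of mesenchymal cells, was at 31.5 and 59.3 CPM, giving a ratio of 1.88 (1.71 to 2.07).

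The 3 Adam proteins that lack a working protease site and act in neural adhesion did not move together. Adam11 was at 28.1 CPM in control against 14.7 CPM in Seh1cKO, 1.92-fold lower (1.67 to 2.21), the lowest ratio of the family. Adam22, a receptor of the secreted protein Lgi1, was at 61.5 and 61.9 CPM, and Adam23 at 90.6 and 88.8 CPM, both with intervals that include equality. Over the 11 measured Adam genes, 8 (72.7%) were higher, beside 60.9% of all genes, and 3 lower, with a median log2 ratio of 0.23. After scaling by the median of ratios Adam9 and Adam22 were lower too, leaving 6 of 11 higher, beside 49.3% of all genes. Adam1a, at 1.59 and 2.23 CPM, is uncertain, since 77.8% of its 50-base stretches also occur in transcripts of other genes.

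ADAMTS genes encode secreted proteases with thrombospondin repeats, and Adamts14 stood apart from the rest. Adamts14, which removes the amino-terminal propeptide of fibrillar procollagens (chromosome 10, 61197112 to 61273419), was at 7.43 CPM in control, from 154 reads, and 38.1 CPM in Seh1cKO, from 784 reads. That is 5.12-fold higher (4.31 to 6.13). The other 2 procollagen N-proteinases were nearer to equality, Adamts2 at 12.3 and 16.1 CPM, a ratio of 1.31 (1.11 to 1.54), and Adamts3 at 5.31 and 5.73 CPM, a ratio of 1.08 (0.825 to 1.41). The fibrillar collagens they process were higher in the same library, Col1a1 at 45.2 and 184 CPM and Col3a1 at 24.1 and 119 CPM, and belong to the fibroblast markers, whose part in this result was not tested.

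Proteases that cut the large brain proteoglycans differed less. Adamts1 was the most abundant, at 47.3 CPM in control against 66.1 CPM in Seh1cKO, a ratio of 1.40 (1.29 to 1.52), followed by Adamts9 at 28.1 and 39.8 CPM, a ratio of 1.42 (1.27 to 1.58). Adamts5, aggrecanase 2, was at 5.45 and 11.1 CPM, giving a ratio of 2.04 (1.62 to 2.58) that fell short of 2-fold once the pseudocount of 1 CPM was added. Adamts4, aggrecanase 1, which oligodendrocytes express, was at 10.5 and 8.79 CPM, giving a ratio of 0.836 (0.682 to 1.02). Adamts15 was at 5.60 and 10.4 CPM, giving a ratio of 1.86 (1.47 to 2.35). On the CPM scale the interval of Adamts4 includes equality, and those of Adamts5, Adamts1, Adamts9 and Adamts15 lie above it. Of 15 measured Adamts genes, 12 (80%) were higher, beside 60.9% of all genes, and 3 lower. The third lower one besides Adamts4 and Adamts17 was Adamts13, the protease of von Willebrand factor, at 4.58 and 2.86 CPM. Among the Adamts-like proteins, which have no protease domain, all 4 measured were higher, from Adamtsl5 at a ratio of 1.34 (1.03 to 1.75) to Adamtsl1 at 2.05 (1.56 to 2.70).

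The TIMPs, which inhibit metalloproteinases, were all abundant and within 2-fold. Timp2, which also takes part in activating the Mmp2 precursor with Mmp14, was at 360 CPM in control against 422 CPM in Seh1cKO, a ratio of 1.17 (1.14 to 1.21). Timp3, the TIMP that binds the matrix and inhibits ADAM17 and aggrecanases, was at 80.4 and 97.3 CPM, giving a ratio of 1.21 (1.13 to 1.29). Timp4 was at 70.7 and 75.4 CPM, with a ratio of 1.07 and an interval (0.993 to 1.15) that includes equality. Timp1, which lies on chromosome X (20870166 to 20874737), was the 1 lower member, at 222 and 181 CPM, 1.23-fold lower (1.18 to 1.28). Summed astrocyte markers were lower in that library as well (12172 and 7920 CPM), and their part in this difference was not tested.

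Per length, Timp1 was the most abundant of the 4 in both libraries, at 252 FPKM in control and 205 FPKM in Seh1cKO, 2.57 and 1.78 times the level of Timp2. Timp2 was 18.9 times as abundant as Mmp2 in control and 5.42 times in Seh1cKO. Summed over the family, TIMP levels were 417 and 395 FPKM, while the summed Mmp levels were 115 and 173 FPKM. The lower TIMP sum rests on Timp1, the 1 lower member. On the CPM scale the TIMP sum went the other way, at 733 and 776 CPM, and the Mmp sum was at 457 and 647 CPM. Timp1, Timp3 and Timp4 overlap the synapsin genes Syn1, Syn3 and Syn2. Syn1 was at 25.3 and 23.1 CPM, Syn3 at 9.26 and 8.20 CPM and Syn2 at 42.5 and 31.5 CPM, below the TIMP within each, and whether the counting used strand was not given in the sources used here.

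Genes of plasminogen activation were higher in Seh1cKO, the scarce ones more so. Plau, urokinase (chromosome 14, 20836662 to 20843388), was at 2.56 CPM in control, from 53 reads, and 18.7 CPM in Seh1cKO, from 386 reads, 7.33-fold higher (5.49 to 9.96). Plaur, the cell surface receptor of urokinase (chromosome 7, 24460937 to 24475970), was at 1.40 and 8.25 CPM, 5.90-fold higher (3.96 to 9.08). Plat, tissue plasminogen activator, was the abundant activator, at 159 and 246 CPM, a ratio of 1.54 (1.48 to 1.61). Per length, Plau was 1.77% of the level of Plat in control and 8.36% in Seh1cKO. Plasminogen itself was hardly expressed, with 4 and 6 reads of Plg. The epithelial gene Krt8 (0.772 and 78.7 CPM) and the mesothelial gene Msln (0.0965 and 24.9 CPM) were far higher in the same library as Plau and Plaur. Other genes of that marker list were not: Epcam was at 7.91 and 7.04 CPM, and Wt1 and Upk3b had no reads in Seh1cKO. The part of these genes in this result was not tested.

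**Figure D3:**
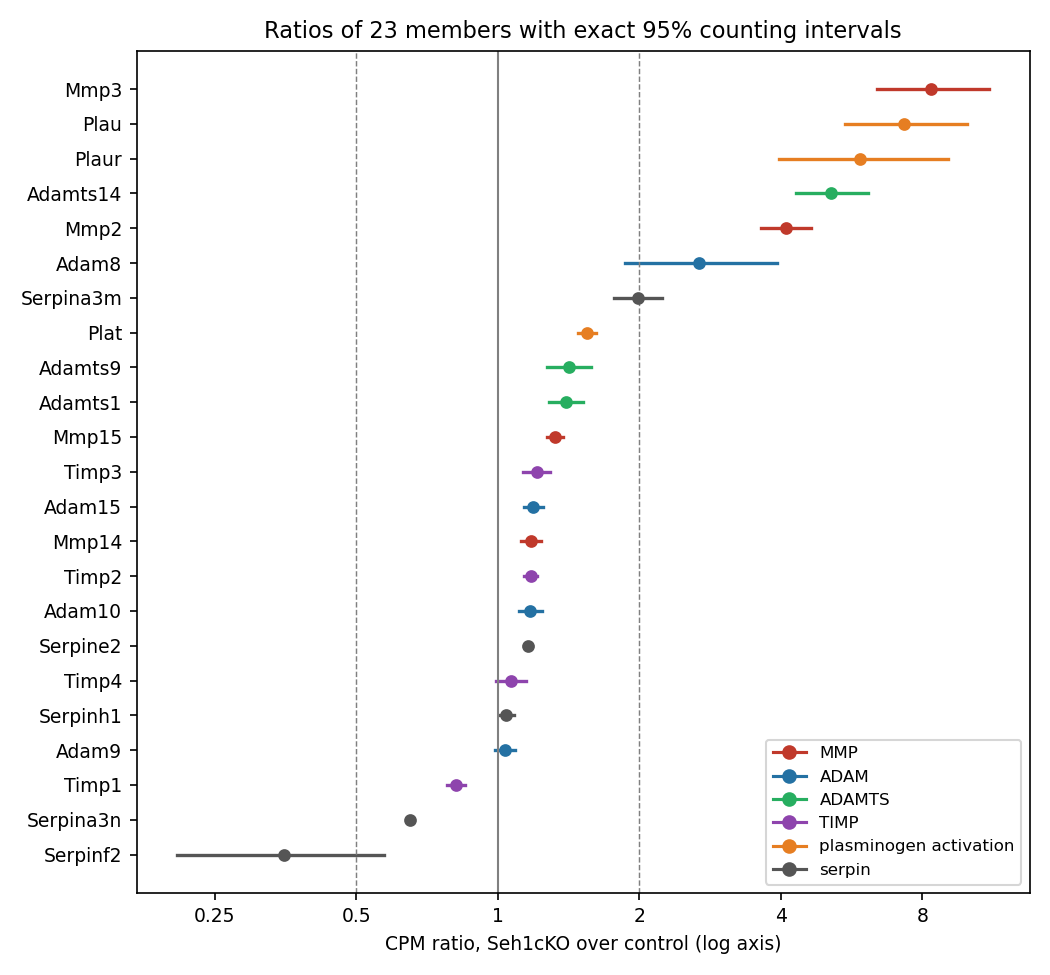
Ratio of CPM, Seh1cKO over control (horizontal, log axis), for the 23 members named by rule, with exact 95% intervals from the read counts (bars; too narrow to see for Serpina3n and Serpine2). The solid line marks equality and dashed lines 2-fold; ratios run from 0.351 for Serpinf2 to 8.36 for Mmp3, and the 4 Timp genes, Serpine2 and Serpinh1 lie between 0.815 and 1.21.

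Inhibitors of plasminogen activation and plasmin went both ways. Serpine2, protease nexin 1, which inhibits thrombin and both activators, was among the most abundant members, at 939 CPM in control against 1088 CPM in Seh1cKO, a ratio of 1.16 (1.14 to 1.18). Serpinb2, plasminogen activator inhibitor 2, had 1 and 14 reads, a ratio of 14.1 with an interval from 2.14 to 596. Serpinf2, the plasmin inhibitor alpha 2 antiplasmin, was at 3.18 and 1.12 CPM, from 66 and 23 reads, 2.85-fold lower (1.75 to 4.80). It was within 2-fold only because of the pseudocount of 1 CPM, at a log2 ratio of -0.98. Its neighbour on chromosome 11, Serpinf1, which encodes the secreted factor PEDF, was at 34.6 and 42.2 CPM, so adjacent genes differed in opposite directions. Per length, Serpine2 was 7.34 times the level of Plat in control and 5.51 times in Seh1cKO.

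Clade A serpins held the most abundant member and were mostly lower. Serpina3n, a secreted inhibitor of granzyme B and of elastase-like enzymes that reactive astrocytes and oligodendrocytes are known to make, ranked 7 of all genes in control at 4589 CPM and 10 in Seh1cKO at 2988 CPM. It was 1.54-fold lower (1.52 to 1.55) and alone took 0.459% and 0.299% of all reads. Serpina3h was at 285 and 157 CPM, 1.81-fold lower (1.74 to 1.89), and Serpina3i at 44.5 and 26.9 CPM, 1.66-fold lower (1.49 to 1.84). Against these, Serpina3m was higher, at 21.0 and 41.7 CPM, a ratio of 1.98 just under 2-fold, and Serpina3f stood at 44.9 and 54.5 CPM. Of 9 measured genes of the Serpina3 cluster on chromosome 12, 6 were lower and 3 (33.3%) higher, beside 60.9% of all genes higher. The astrocyte gene Gfap was 2.35-fold lower (2.32 to 2.37) in the same library, at 5200 and 2214 CPM, and S100b was at 80.4 and 19.9 CPM, while Aldh1l1 was higher, at 414 and 483 CPM; their part in these values was not tested.

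The Serpina3 genes are recent copies of each other, and reads can be split between them. Of the 50-base stretches of Serpina3h, 21.9% also occur in another gene, as do 19.1% for Serpina3m, 15.9% for Serpina3i and 6.90% for Serpina3n. The values of Serpina3f, g, h, i, k and m are uncertain for that reason. Summed over the cluster, which is less affected by such splitting, levels came to 5028 CPM in control against 3307 CPM in Seh1cKO, 1.52-fold lower (1.51 to 1.54). Without Serpina3n they were 439 and 319 CPM. The summed level of all 112 genes was lower in Seh1cKO (8670 and 7692 CPM) while most single genes were higher; without the Serpina3 genes it was higher, at 3642 and 4385 CPM.

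Clade B serpins, which act inside cells, were all higher among the 6 measured, beside 60.9% of all genes. Serpinb9b, of the granzyme inhibitor group (chromosome 13, 33027414 to 33040588), was at 0.531 CPM in control, from 11 reads, and 9.08 CPM in Seh1cKO, from 187 reads, 17.1-fold higher (9.34 to 34.9), the largest ratio among measured members. Its neighbour Serpinb9, the mouse granzyme B inhibitor, was at 2.46 and 5.39 CPM, giving a ratio of 2.19 (1.56 to 3.11). Serpinb6b, in the same run, had 4 and 32 reads, a ratio of 8.05 (2.86 to 31.3). The abundant Serpinb6a was at 46.2 and 72.4 CPM, giving a ratio of 1.57 (1.44 to 1.70). In that run of 7 genes on chromosome 13 (32842092 to 33159754), 6 were higher, beside 62.0% of all 18651 genes with no floor. Serpinb1c was lower, at 7 and 6 reads. Of the 6, Serpinb9c rests on 0 and 1 reads. Serpinb1b rests on 4 and 10 reads, with an interval (0.726 to 11.0) that includes equality. Serpinb5, maspin, an epithelial gene, was at 1.50 and 2.62 CPM, giving a ratio of 1.75 (1.11 to 2.82). Mesothelial and epithelial markers were higher in the same library (11.2 and 204 CPM), and their part here was not tested.

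The remaining serpins have other partners. Serpinh1, the collagen chaperone HSP47 of the endoplasmic reticulum, inhibits no protease and was at 303 and 316 CPM, giving a ratio of 1.04 (1.01 to 1.08) that fell to 0.989 after scaling by the median of ratios. Collagen genes that it serves were 4.08-fold (Col1a1) and 4.93-fold (Col3a1) higher. Serping1, the inhibitor of the first complement component, was at 5.74 and 8.93 CPM, giving a ratio of 1.56 (1.23 to 1.98). Antithrombin (Serpinc1), heparin cofactor II (Serpind1) and Serpine3 had 4 to 5 reads in control and 1 to 6 in Seh1cKO and were not measured. Of the 43 members below 1 CPM, 13 had reads in Seh1cKO only and 5 in control only. Most of these rest on 1 to 3 reads and separate nothing at this depth. After rounding, 13 of the 112 members had no read in control and 6 none in Seh1cKO, beside 1010 and 640 of all 18651 genes. In total 17655 genes were listed in control and 18027 in Seh1cKO. A count of 0 allows up to 3 reads, or 0.145 CPM in control and 0.146 CPM in Seh1cKO.

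The authors' deposited table of genes that differ lists 13 of the 112, 12 as higher (10.7%, beside 3.53% of all 18651 genes) and 1 as lower (0.893%, beside 1.27%). The lower one is Serpinf2, at a log2 fold change of -1.50 in the authors' deposited table. The 7 genes past 2-fold here are all in it, with Serpinb9, Adamts5, Adamtsl1, Serpinb6b and Mmp13 besides. The authors' deposited table gives Mmp13 a log2 fold change of 4.64 because a missing value was set to 0.01 FPKM. Its false discovery rates come from the same 2 libraries and are no measure of replication.

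Related protease genes that were not part of the chosen families are given from lists, without a test. In a list of 29 serine protease genes, 15 were measured, with a median log2 ratio of 0.30. Of these, 5 (33.3%) were at least 2-fold higher, beside 2.86% of all genes, and none lower, beside 1.29%. Thbd, thrombomodulin, which turns thrombin into an anticoagulant, was at 2.70 and 29.8 CPM, 11.0-fold higher (8.37 to 14.8). St14, matriptase, an epithelial membrane protease, was at 1.40 and 9.32 CPM, 6.66-fold higher (4.49 to 10.2), and its inhibitor Spint2 at 13.9 and 31.0 CPM, 2.22-fold higher (1.93 to 2.56). In 18 measured membrane and convertase proteases the median was 0.07, the value of all genes. Past 2-fold was 1 (5.56%), Rhbdf2, a partner of ADAM17 in its transport to the surface, at 3.04 and 8.40 CPM. Its target Adam17 was near equality, as given above.

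Inhibitors and clearance receptors outside the chosen families were also higher in part. Of 17 measured, 5 (29.4%) were at least 2-fold higher, beside 2.86% of all genes, and none lower, with a median of 0.39. Slpi, secretory leukocyte protease inhibitor, was at 2.07 and 12.2 CPM, 5.87-fold higher (4.24 to 8.32). The endocytic receptor Lrp2 was at 17.8 and 38.2 CPM, 2.14-fold higher (1.89 to 2.43), whereas Lrp1, which clears serpin complexes and metalloproteinases, was at 592 and 693 CPM. A2m, a broad protease trap, was lower at 287 and 202 CPM. Spint2 stands in both this list and the serine protease list, as do Tfpi, Tfpi2 and Spint1. Reck is also on the membrane and convertase list, and Cst3, Cst6 and Cstb are on the list of cathepsins and cystatins given below. Cst6, at 1.11 and 4.56 CPM, counts as past 2-fold in each of its lists.

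Among 21 measured matrix substrates, 7 (33.3%) were higher by 2-fold or more, beside 2.86% of all genes. Another 2 (9.52%) were lower by 2-fold or more, beside 1.29%, and the median was 0.46. The higher ones were Nid1 at 20.4 and 156 CPM, 7.65-fold higher (6.91 to 8.48), Dcn at 6.88-fold, Lum at 6.32-fold, Bgn, Fn1, Tnc and Fbn1. The lower ones were the brain proteoglycans Acan, at 8.25 and 2.48 CPM, and Bcan, at 962 and 460 CPM, and Ncan was at 2040.1 and 1341 CPM. Neither kind of matrix went one way throughout: elastin (Eln) was at 101 and 88.6 CPM, a ratio of 0.879, and the proteoglycan Cspg4 at 98.8 and 148 CPM, a ratio of 1.50 (1.42 to 1.59). Dcn and Lum also belong to the fibroblast list. The plot of lists sets these beside the cell markers.

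**Figure D4:**
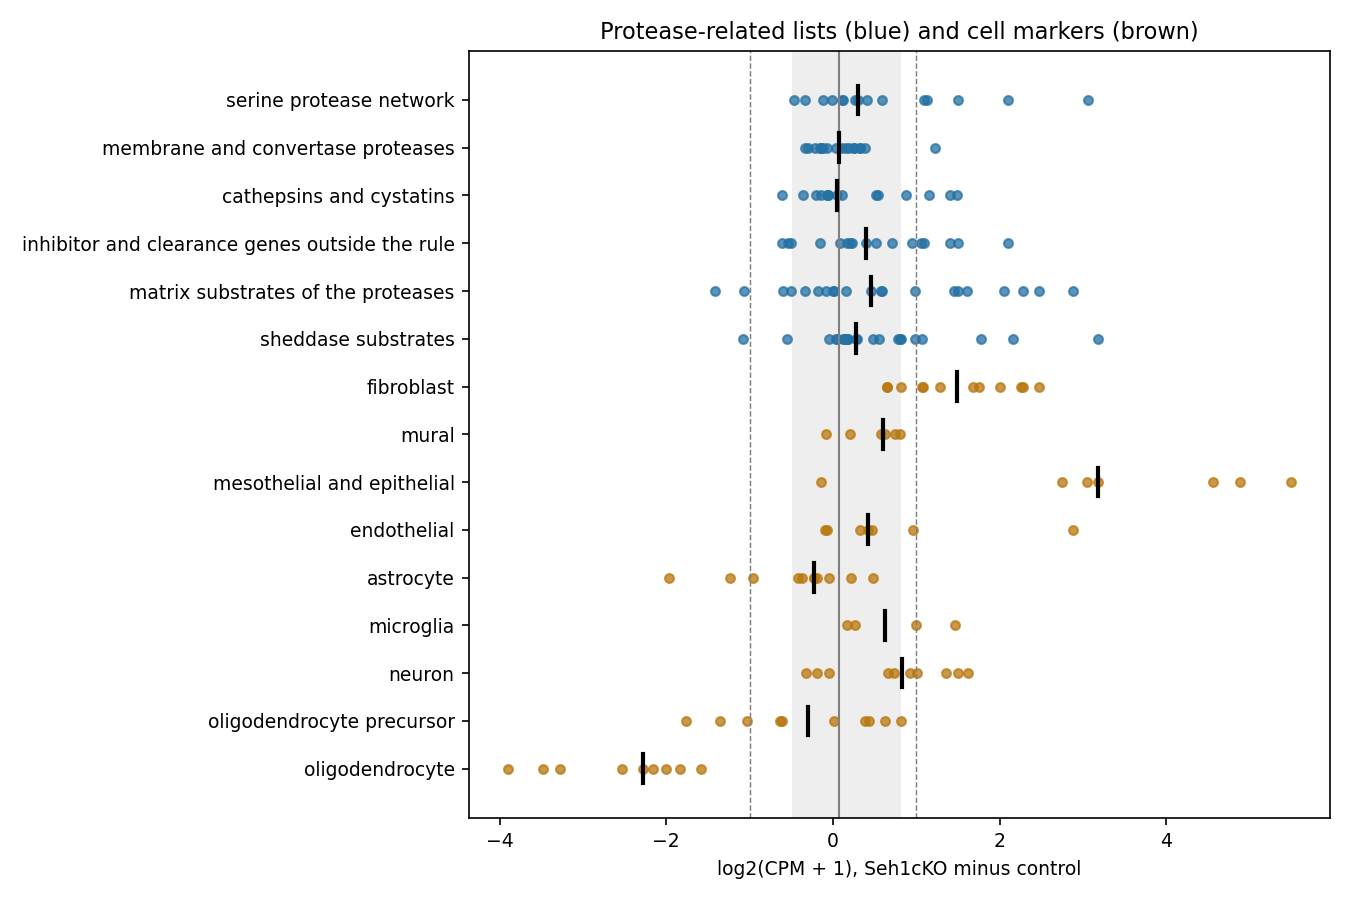
Difference in log2(CPM + 1), Seh1cKO minus control (horizontal), for each measured gene of 6 protease-related lists (blue) and 9 cell marker lists (brown); black bars are medians. The grey band spans the 5th to 95th percentile of all genes measured and dashed lines mark 2-fold. Fibroblast and most epithelial markers lie to the right and oligodendrocyte markers, with a median of -2.28, to the left.

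For all marker lists, the summed levels are given beside the differences above. Mural markers were at 208 CPM in control against 333 CPM in Seh1cKO, and endothelial markers at 33.6 and 64.9 CPM. Microglia markers were at 9.74 and 19.2 CPM, and neuron markers at 648 and 649 CPM. Of the 10 microglia markers, 6 were below a mean of 1 CPM. The 4 measured were all higher, with Cd68 at 3.67 and 8.30 CPM. Below that level, Aif1 (12 and 4 reads) and C1qb (17 and 12) were lower, and C1qa (14 and 23) and Csf1r (10 and 26) higher. The equal sums for neuron markers rest on the abundant Map2 and Gap43. Of the 10, 4 (40%) were at least 2-fold higher, beside 2.86% of all genes, among them Neurod1 at 4.18-fold and Nefl at 4.13-fold. The median log2 ratio of the 10 was 0.83. Markers of oligodendrocyte precursors were at 3868 and 3950 CPM and moved both ways. Of the 10, 3 (30%) were at least 2-fold lower (Gpr17, C1ql1 and Sox10), beside 1.29% of all genes. Pdgfra and Cspg5 were higher, at ratios of 1.77 and 1.54. Some defining markers were at or near 0: the mesothelial genes Wt1 and Upk3b had 1 and 2 reads in control and none in Seh1cKO, although Msln was high there. The endothelial gene Cldn5 had 0 and 1 reads, while Cdh5 was at 1.01 and 13.8 CPM. Which cells carried the protease reads was not tested.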

How the data were processed

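Per the file headers, the authors deposited expected counts and FPKM values for the genes of each library; HTSeq, StringTie and mm10 are named in the submitters' processing notes without roles. The aligner and any strand setting were not given in the sources used here. From 1 library per group, the authors' deposited comparison table gives log2 fold changes, p-values and false discovery rates. Expected counts (not whole for 29.3% and 29.5% of genes) were rounded and scaled to CPM; missing genes were set to 0. A gene counted as measured at a mean of 1 CPM or more, and 2-fold was read on log2(CPM + 1), which understates low genes. Folds are CPM ratios with exact Clopper-Pearson 95% intervals (scipy 1.17.1), checked on simulated data; the labels name no molecular identifiers, and intervals cover counting error only. Coordinates come from RefSeq GRCm38.p6, the assembly of mm10.

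Members and lists were chosen with earlier results of these data known. The text names members past 2-fold at a mean of 5 CPM, the 3 most abundant per family, all Timps, Plat, Plau, Plaur, Serpine2, Serpinh1 and those next to the threshold; 1 further member is not reported here. Other members, among them Serpinb9b, Serpina3h, Serpina3i, Adam11, Adam12, Mmp13 and Serpinb2, were named after their values were seen. Planned protein comparisons are not analysed here. Other pseudocounts, floors and scalings were tried.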

Additional observations from a re-analysis of the deposited data

How the results depend on the processing

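The count of 7 members at least 2-fold higher ranged from 6 to 10 over pseudocounts of 0.1 and 5 CPM, both rescalings, the FPKM scale, no floor and the removal of chromosomes X and Y or, chosen after seeing the data, of the Serpina3 genes. With a floor of a mean of 5 CPM it was 4. No member was at least 2-fold lower, but 1, Serpinf2, was with a pseudocount of 0.1 CPM, with scaling by the median of ratios and with scaling by the upper quartile. The median log2 ratio of 0.32 was 0.22 with no floor, where genes with few reads enter, and 0.24 to 0.36 otherwise. On the FPKM scale 204 genes of all were higher and 148 lower, beside 394 and 178 on the CPM scale. Scaling by the median of ratios turned the ratios of Adam9 (0.983) and Serpinh1 (0.989) below 1. The other 21 named ratios kept their direction under both scalings and on the FPKM scale. Of these 21, 8 fell outside their counting interval with the median of ratios and 3 with the upper quartile. Serpina3n was among them, with ratios of 0.617 and 0.630 beside 0.651. No paired analysis was possible because each group has 1 library. Depth limits the 43 members below 1 CPM.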

Other observations

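Substrates of the ADAM sheddases were given no room above. Of 23 measured in a list of 25, 20 (87.0%) were higher in Seh1cKO, beside 60.9% of all genes. Scaled by the median of ratios, 18 were higher, as Notch1 and Prnp turned lower, beside 49.3% of all genes. At least 2-fold higher on the CPM scale were 4 (17.4%), beside 2.86% of all genes. Another 1 (4.35%), beside 1.29%, was at least 2-fold lower, Aplp1, at 368 and 173 CPM. The EGF receptor ligands Ereg and Areg, which ADAM17 releases, were at 0.772 and 6.94 CPM and at 0.386 and 3.74 CPM, 8.99-fold (5.35 to 16.2) and 9.69-fold (4.68 to 23.2) higher. Btc was at 0.868 and 2.91 CPM and Hbegf at 96.8 and 170 CPM, while Tgfa was lower, at 123 and 83.9 CPM. The epithelial cadherin Cdh1, a target of Adam10, was at 0.289 and 10.7 CPM and is also on the epithelial marker list.

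Among 15 cathepsins and cystatins, 3 (20%) were at least 2-fold higher, beside 2.86% of all genes, and none at least 2-fold lower. The median log2 ratio was 0.05. Ctsk, the collagen-cutting cathepsin of osteoclasts and fibroblasts, was at 1.45 and 5.87 CPM, 4.06-fold higher (2.70 to 6.27), and Ctsh at 12.8 and 29.8 CPM. The abundant Ctsd was near equality, at 1456 and 1512 CPM. The secreted inhibitor Cst3, cystatin C, was at 1178 and 770 CPM, 1.53-fold lower (1.50 to 1.56), close in size to Serpina3n.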
